A study of Homo sapiens with 6 samples.

Results

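The tumor necrosis factor (TNF) and TNF receptor superfamilies were examined in BT-549 cells with NEAT1 silencing. Their members were taken from gene symbols, as every TNFSF and TNFRSF gene that carries a number, together with TNF, LTA, LTB, FASLG, CD70, FAS, CD40, CD27, LTBR and EDAR. This gave 42 of the 25545 genes in the table of expression values, of which 16 encode ligands and 26 encode receptors. BT-549, a long-established line of triple-negative breast cancer (TNBC), has a mesenchymal phenotype, and NEAT1 is the long noncoding RNA on which nuclear paraspeckles assemble. Cells were transfected with a control siRNA (CsiRNA, 3 libraries) or with an siRNA against NEAT1 (NEAT1siRNA, 3 libraries), and RNA was isolated 48 h later, to ask which transcripts depend on NEAT1. All 6 libraries came from this single cell line, and the sample names also carry the word tet, although the labelled treatment was siRNA in each. The labels give triplicate cultures without further detail, so that the p-values measure the spread between these samples, which may be technical.

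TNF superfamily ligands are trimeric membrane or shed proteins that bind receptors with cysteine-rich extracellular domains. Receptors with a cytoplasmic death domain, such as TNFR1, FAS and the TRAIL receptors DR4 and DR5, can assemble caspase-8-activating complexes as well as NF-κB signaling complexes. Other receptors have no death domain and recruit TRAF adaptors to activate NF-κB and MAP kinases, and decoy receptors bind ligand without transmitting a death signal. In breast cancer cells, the family is best known for inflammatory NF-κB signaling and for TRAIL-induced apoptosis.

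Expression is given as TPM, a transcript abundance that is scaled for transcript length and has the same sum in every library. Reads recovered from these values numbered 15788997 to 20341871 per library. NEAT1 itself, measured first as a check of the labels, was at 13.4, 7.68 and 10.8 TPM in the CsiRNA libraries and at 4.36, 2.96 and 2.73 TPM in the NEAT1siRNA libraries. The groups did not overlap, and NEAT1 was at 31.5% of control (log2 fold change -1.41 ± 0.14 (SE), limma adjusted p = 1.21e-07). The mesenchymal markers VIM, CDH2, FN1 and ZEB1 were all expressed at a mean above 1 TPM, and of these CDH2 (limma adjusted p = 0.0186) and FN1 (adjusted p = 0.00116) fell. The 12 epithelial, lymphoid, myeloid and endothelial markers had group means of at most 0.221 TPM (CD14), and ESR1, CD3E, MS4A1, VWF and CDH5 were at 0 in all libraries. The 4 noncoding RNAs RN7SK, RN7SL1, RN7SL2 and RPPH1 took 64.4% to 68.1% of all TPM in a library, with overlapping ranges in the groups. Over all 10721 genes with a mean of at least 1 TPM, 14% passed an adjusted p of 0.05, 8.98% being lower and 4.99% higher after NEAT1 silencing, and the median log2 fold change was -0.04.

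Of the 42 superfamily genes, 11 had a mean of at least 1 TPM and were tested, 23 were lower than that but above 0 in at least 1 library, and 8 were listed at 0 in all 6. TNFRSF1A, which encodes TNFR1, was the most abundant and alone made up 40.9% to 47.5% of the summed TPM of the superfamilies. It was followed by TNFRSF12A (mean of 44.7 TPM over the 6 libraries), LTBR (21.4), CD70 (18.9), TNFRSF21 (15.7), TNFRSF10B (14.1), TNFSF9 (5.73), TNFRSF11B (5.36), FAS (1.82), TNFRSF10D (1.32) and TNFSF12 (1.24). Across the 6 libraries, the ranges of TNFRSF1A and TNFRSF12A did not overlap with that of the next gene in this order, whereas LTBR and CD70, CD70 and TNFRSF21, TNFRSF21 and TNFRSF10B, TNFSF9 and TNFRSF11B, FAS and TNFRSF10D, and TNFRSF10D and TNFSF12 overlapped. The first 6 genes held 91.4% to 93.4% of the summed TPM in every library. The cells thus had TNFR1, the TWEAK receptor, the lymphotoxin β receptor, DR6 and DR5 as their main transcripts for receptors, and CD70 and TNFSF9 (4-1BB ligand) as those for ligands.

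**Figure D1:**
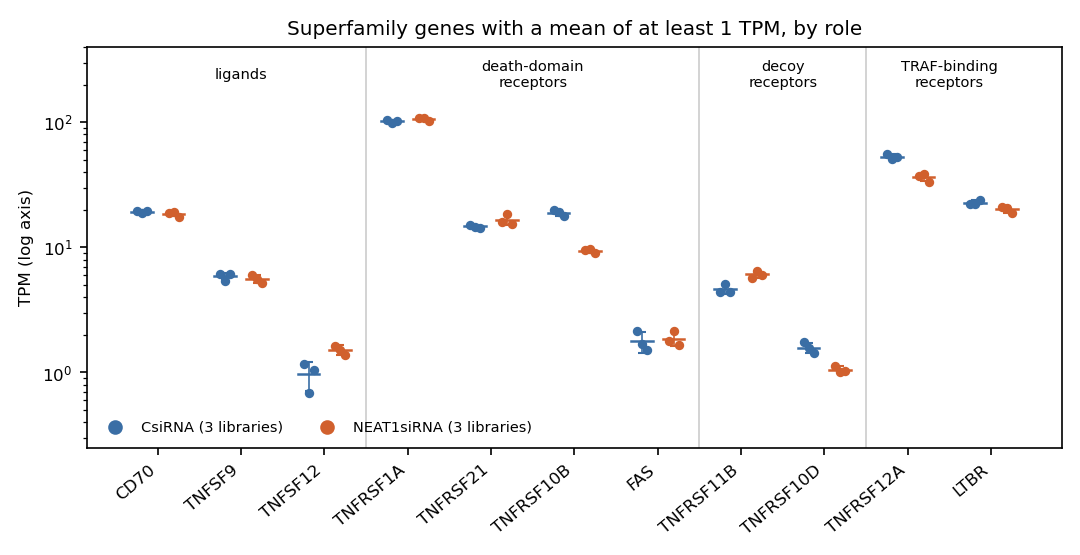
TPM (log axis) of the 11 superfamily genes with a mean of at least 1 TPM, grouped by role, in 3 CsiRNA (blue) and 3 NEAT1siRNA (orange) libraries. Each point is a library, horizontal lines are group means and error bars are SDs; TNFRSF10B shows the widest gap between the groups and TNFRSF1A the highest level.

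Among the 11 tested genes, 5 passed the threshold, against 14% of all genes tested. TNFRSF10B, TNFRSF12A and TNFRSF10D fell after NEAT1 silencing, and TNFRSF11B and TNFSF12 rose. TNFSF12 reached a mean of 1 TPM only through the NEAT1siRNA libraries, so that the count of 5 is given as a description. The median log2 fold change of the 11 was -0.06, compared with -0.04 for all genes. CD70, TNFSF9, TNFRSF1A, FAS, TNFRSF21 and LTBR did not pass. With median centring of the libraries, or with quantile normalization, TNFRSF21 was added and the split became 3 higher and 3 lower, where 19.7% and 20.4% of all genes passed. For the whole transcriptome the split moved from 535 higher and 963 lower genes to 1158 and 954 with centring and to 1082 and 1109 with quantile normalization. In 7 of the 11 genes the values of the groups did not overlap, against 30.3% of all genes tested. As these are bulk samples, fewer cells expressing a gene and less RNA per cell cannot be told apart.

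**Figure D2:**
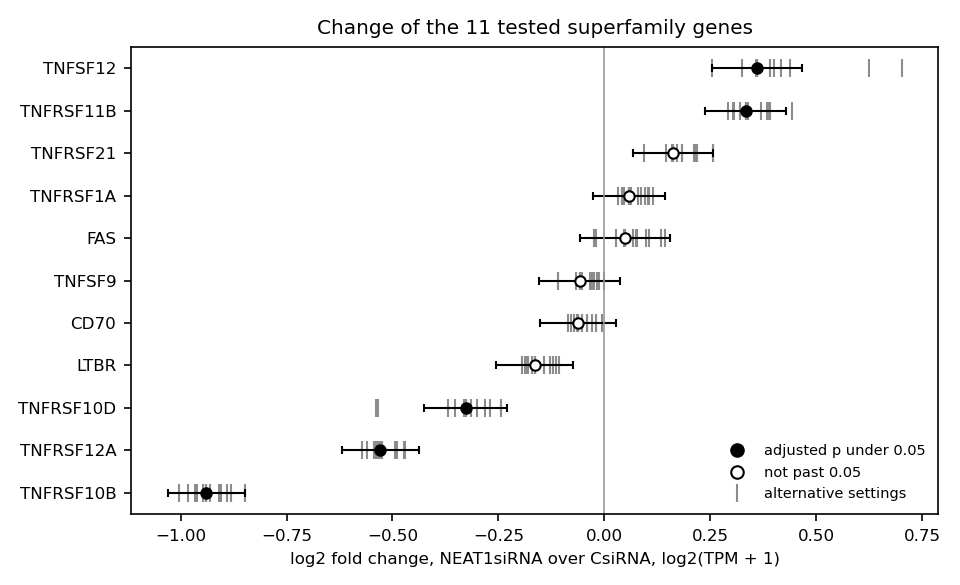
Log2 fold change (NEAT1siRNA over CsiRNA, on the log2(TPM + 1) scale) of the 11 tested genes with SE, with filled circles for an adjusted p under 0.05. Grey ticks give the value of each alternative setting, of which voom is on a log2 scale of reads adjusted for depth and the pseudocount of 0.1 on that of log2(TPM + 0.1); for TNFRSF10B they run from -1.0 to -0.85.

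Among the tested death-domain receptors, the largest change was that of TNFRSF10B. TNFRSF10B encodes DR5, the TRAIL receptor with a functional death domain that is the main route of TRAIL-induced apoptosis in many carcinoma cells. It was at 19.9, 19.1 and 17.7 TPM in the CsiRNA libraries and at 9.48, 9.68 and 8.96 TPM in the NEAT1siRNA libraries. Every NEAT1siRNA library was thus below every CsiRNA library, and the 3 values within a group lay close together. TNFRSF10B fell to 49.6% of control (log2 fold change -0.94 ± 0.09 (SE), limma adjusted p = 9.42e-08), the largest change among the tested superfamily genes in either direction. It passed the threshold in all 16 alternative settings, with a log2 fold change of -1.0 to -0.85 and a largest adjusted p of 0.00480. TNFRSF10B lies at chr8:23020133-23069031 (GRCh38, minus strand), in a cluster with TNFRSF10C (chr8:23102921-23117445), TNFRSF10D (chr8:23135588-23164027) and TNFRSF10A (chr8:23190452-23225102). These are paralogs of related sequence, and how reads that match more than 1 of them were counted is not given in the sources used here. The opposite-strand gene RHOBTB2 overlaps 377 of the 5010 exonic bases of TNFRSF10B, or 7.53%. RHOBTB2 was at 18.9, 16.8 and 17.7 TPM in CsiRNA and at 15.1, 13.8 and 13.2 TPM in NEAT1siRNA libraries, and it also fell (log2 fold change -0.32, adjusted p = 0.0224). The libraries were stranded, whether the counting used strand is not given in the sources used here, and the part of RHOBTB2 in the TNFRSF10B value was not tested.

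The other 3 tested death-domain receptors did not pass the threshold. TNFRSF1A (TNFR1, the ubiquitous receptor for soluble TNF) ranged from 97.9 to 105 TPM in CsiRNA and from 102 to 108 TPM in NEAT1siRNA libraries. These ranges overlapped, and the log2 fold change of 0.06 had a 95% interval of -0.12 to 0.23 (adjusted p = 0.709). With the GC and length trend removed, TNFRSF1A was called higher (log2 fold change 0.10, adjusted p = 0.0476), but not when a replicate block was added (adjusted p = 0.0620). FAS, the receptor for FAS ligand, was at 1.5 to 2.15 TPM in CsiRNA and at 1.67 to 2.15 TPM in NEAT1siRNA libraries, with a 95% interval of -0.17 to 0.27 for its log2 fold change of 0.05 (adjusted p = 0.816). FAS overlaps STAMBPL1 on the same strand and ACTA2 on the other. TNFRSF21 (DR6) was at 15.1, 14.6 and 14.3 TPM in CsiRNA libraries and at 16.1, 18.4 and 15.4 TPM in NEAT1siRNA libraries. Each of the NEAT1siRNA values was above the CsiRNA values, and the highest was that of replicate 2. The log2 fold change of TNFRSF21 was 0.16, with a 95% interval of -0.03 to 0.36 (adjusted p = 0.275), and it passed the threshold in 5 of the 16 alternative settings, among them centring of the libraries (adjusted p = 0.0236), voom on recovered reads (adjusted p = 0.0269) and removal of the GC and length trend (adjusted p = 0.00404). TNFRSF10A, which encodes DR4, the other TRAIL receptor with a death domain, had 18, 13 and 14 reads in CsiRNA and 8, 14 and 4 reads in NEAT1siRNA libraries. The groups overlapped, and with voom, a limma method for read counts, the log2 fold change of TNFRSF10A was -0.81 (adjusted p = 0.124), compared with -0.96 for TNFRSF10B on the same scale. At these few reads a change of TNFRSF10A as large as that of TNFRSF10B could not be told from none, and the difference between the genes was not tested. TNFRSF25 (DR3) had 2 to 8 reads per library and EDAR, the ectodysplasin receptor, 1 read in a single library.

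The decoy receptors for TRAIL moved in different directions. TNFRSF10D encodes DcR2, a TRAIL receptor with a truncated death domain. It was at 1.74, 1.56 and 1.44 TPM in CsiRNA and at 1.13, 1.02 and 1.02 TPM in NEAT1siRNA libraries. The groups did not overlap, and TNFRSF10D fell to 66.8% of control (log2 fold change -0.33 ± 0.10 (SE), adjusted p = 0.0257). Its call was lost without CsiRNA replicate 1 (adjusted p = 0.123) and without NEAT1siRNA replicate 3 (adjusted p = 0.0892). TNFRSF11B encodes osteoprotegerin, a secreted receptor that binds RANK ligand and TRAIL. It was at 4.41, 5.09 and 4.38 TPM in CsiRNA libraries and at 5.73, 6.50 and 6.04 TPM in NEAT1siRNA libraries, again without overlap but in the opposite direction. TNFRSF11B rose to 132% of control (log2 fold change 0.33 ± 0.10 (SE), adjusted p = 0.0204). Leaving out CsiRNA replicate 1, CsiRNA replicate 3 or NEAT1siRNA replicate 3 ended its call, with adjusted p of 0.0813, 0.0739 and 0.0600. The remaining decoys, TNFRSF10C (DcR1) and TNFRSF6B (DcR3), were listed at 0 in all libraries.

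The ratio of TNFRSF11B to TNFRSF10B within a library, both in TPM, was 0.222, 0.266 and 0.247 in the CsiRNA libraries and 0.605, 0.672 and 0.674 in the NEAT1siRNA libraries. The transcript for the secreted TRAIL-binding decoy thus came closer to that for DR5, without exceeding it in any library. Since both genes entered the test above, these ratios are given as a description. By contrast, TNFSF10, which encodes TRAIL itself, had 1 to 7 reads in each library, so that the receptors were transcribed in cells with little transcript of their ligand.

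**Figure D3:**
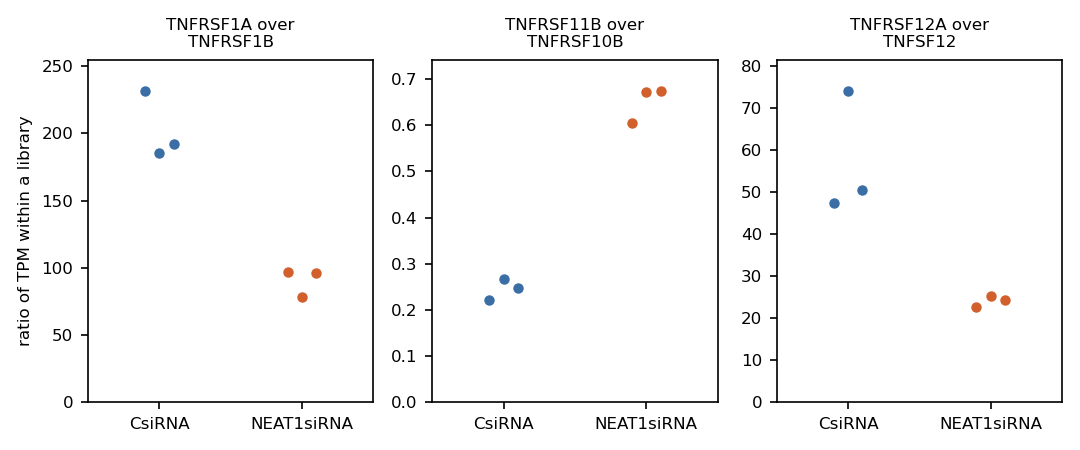
Ratios of TPM within each library for TNFRSF1A over TNFRSF1B, TNFRSF11B over TNFRSF10B and TNFRSF12A over TNFSF12, with CsiRNA libraries in blue and NEAT1siRNA libraries in orange. Each point is a library and each vertical axis starts at 0. The groups are separate in all 3 panels, which is a description, since each ratio includes a gene called in the same libraries.

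TNFRSF12A fell and the transcript of its ligand, TNFSF12, was higher after NEAT1 silencing. TNFRSF12A encodes FN14, a small receptor without a death domain that signals through TRAFs to NF-κB when bound by TWEAK, the product of TNFSF12. TNFRSF12A was at 55.8, 50.7 and 52.5 TPM in CsiRNA libraries and at 37.2, 38.7 and 33.5 TPM in NEAT1siRNA libraries. There was no overlap, and TNFRSF12A fell to 68.8% of control (log2 fold change -0.53 ± 0.09 (SE), limma adjusted p = 0.000256). It passed the threshold in all 16 alternative settings, with a log2 fold change of -0.57 to -0.47 and a largest adjusted p of 0.0237. The gene lies at chr16:3018445-3022383 (GRCh38, plus strand), where 40 of its 1801 exonic bases overlap CLDN6 on the other strand, itself at no more than 0.0856 TPM in any library. TNFSF12 was far less abundant, at 1.18, 0.684 and 1.04 TPM in CsiRNA and at 1.64, 1.53 and 1.38 TPM in NEAT1siRNA libraries. All of its NEAT1siRNA values were above the CsiRNA values, of which replicate 2 was the lowest. TNFSF12 rose to 157% of control (log2 fold change 0.36 ± 0.11 (SE), adjusted p = 0.0242), on a mean of 38.7 reads per library. Its group means were 0.967 TPM in CsiRNA and 1.51 TPM in NEAT1siRNA libraries, so that it entered the test through the group in which it was high. Without CsiRNA replicate 2 the log2 fold change was 0.25 and the call was lost (adjusted p = 0.155), and without NEAT1siRNA replicate 1 the adjusted p was 0.0514. A readthrough transcript that joins TNFSF12 to TNFSF13 is a row of its own, listed at 0 throughout, and the counting of reads shared with it is not given in the sources used here. The ratio of TNFRSF12A to TNFSF12 was 47.3, 74.1 and 50.5 in CsiRNA and 22.6, 25.4 and 24.3 in NEAT1siRNA libraries. It is a description only, since both genes were called in the same libraries.

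The other tested ligands were those for lymphocyte costimulatory receptors. CD70, the ligand of CD27, was at 18.8 to 19.6 TPM in CsiRNA and at 17.6 to 19.1 TPM in NEAT1siRNA libraries (log2 fold change -0.06, 95% interval -0.25 to 0.12, adjusted p = 0.711). TNFSF9, the ligand of 4-1BB, was at 5.38 to 6.12 TPM in CsiRNA and at 5.18 to 6.07 TPM in NEAT1siRNA libraries (log2 fold change -0.06, 95% interval -0.25 to 0.14, adjusted p = 0.749). The ranges of both genes overlapped between the groups. CD70 and TNFSF9 lie close together on chromosome 19, at chr19:6583183-6604103 and chr19:6531026-6535924 (GRCh38), beside TNFSF14 (LIGHT, chr19:6661253-6670588), which was listed at 0. The receptor genes for these ligands were at or near 0 in the same cells, CD27 being listed at 0 throughout and TNFRSF9 (4-1BB) having 0 to 3 reads per library.

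LTBR encodes the lymphotoxin β receptor, which engages the noncanonical NF-κB pathway through TRAF3 and NIK. It was at 22.1, 22.2 and 23.9 TPM in CsiRNA libraries and at 21.0, 20.8 and 18.7 TPM in NEAT1siRNA libraries. Each NEAT1siRNA value was below the CsiRNA values, but the log2 fold change of -0.16 had a 95% interval of -0.35 to 0.02 (adjusted p = 0.254). It passed only with the GC and length trend removed (adjusted p = 0.0478), and not when a replicate block was added (adjusted p = 0.0514). LTBR and TNFRSF1A are neighbors on chromosome 12, at chr12:6375045-6391571 and chr12:6328757-6342114. Its ligands were at or near 0, with LTB and TNFSF14 listed at 0 and LTA having 1 read in each of 2 libraries.

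Most superfamily genes were below the level that was tested. Among the 23 genes under 1 TPM but above 0, reads recovered from the TPM values allowed 6 to be compared with voom, in which 21.7% of the 12824 genes tested passed an adjusted p of 0.05. TNFRSF1B and TNFSF15 passed. TNFRSF1B encodes TNFR2, the TRAF2-binding receptor with high affinity for membrane-bound TNF that is expressed mainly by lymphoid, myeloid and endothelial cells. It had 33, 39 and 48 reads in CsiRNA libraries and 88, 114 and 78 reads in NEAT1siRNA libraries, or 0.452, 0.527 and 0.533 TPM against 1.12, 1.37 and 1.06 TPM. Each NEAT1siRNA library exceeded every CsiRNA library on both scales. Its mean TPM was 235% of control (voom log2 fold change 1.27 ± 0.18 (SE), adjusted p = 7.99e-05), and on the log2(TPM + 1) scale without a filter on TPM the adjusted p was 0.0202. The lymphoid, myeloid and endothelial markers had group means of at most 0.221 TPM. Among them, CD14 was at 0.121 TPM in CsiRNA and 0.221 TPM in NEAT1siRNA libraries, and PTPRC at 0.0382 and 0.0107 TPM. Which cells the TNFRSF1B reads came from was not tested. The ratio of TNFRSF1A to TNFRSF1B, the TNF receptors, was 231, 186 and 192 in CsiRNA and 96.7, 78.3 and 96.0 in NEAT1siRNA libraries, so that TNFR1 remained the predominant transcript by far. The lower ratio is a description, since TNFRSF1B was called in the same libraries.

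TNFSF15 encodes TL1A, the ligand of DR3 and DcR3. It had 20, 24 and 29 reads in CsiRNA libraries and 44, 50 and 42 reads in NEAT1siRNA libraries, again without overlap. Its mean TPM was 188% of control (voom log2 fold change 0.94 ± 0.22 (SE), adjusted p = 0.00497), and without a filter on TPM the adjusted p on the log2(TPM + 1) scale was 0.0225. At 0.143 to 0.315 TPM, TNFSF15 remained a rare transcript in both groups.

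**Figure D4:**
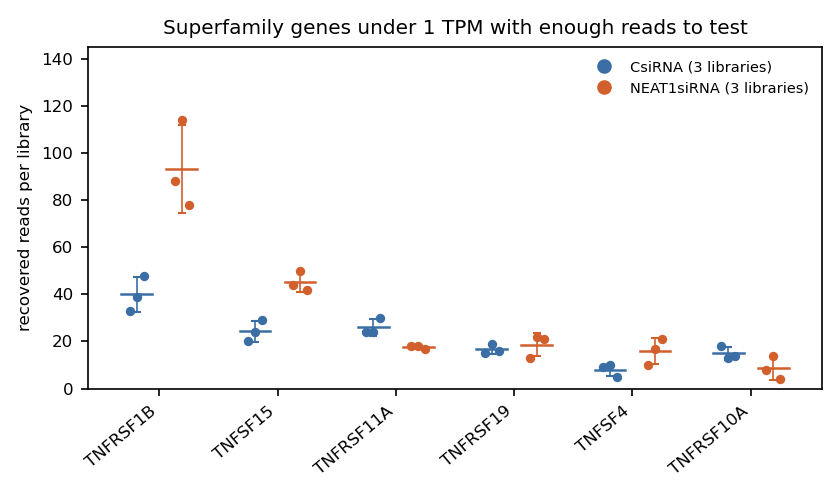
Recovered reads per library of the 6 superfamily genes with a mean under 1 TPM that had enough reads to be compared, with CsiRNA libraries in blue and NEAT1siRNA libraries in orange. Each point is a library, horizontal lines are group means and error bars are SDs; TNFRSF1B and TNFSF15 are higher in all NEAT1siRNA libraries.

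The other 4 of these genes did not pass. TNFSF4 (OX40 ligand) had 9, 10 and 5 reads in CsiRNA and 10, 17 and 21 reads in NEAT1siRNA libraries (voom log2 fold change 1.01, adjusted p = 0.0813). It met the minimum of 10 reads in 3 libraries only through the NEAT1siRNA group, where its mean was higher. TNFRSF11A (RANK, the receptor of RANK ligand) had 24, 24 and 30 reads in CsiRNA and 18, 18 and 17 reads in NEAT1siRNA libraries, each of the latter being lower (voom log2 fold change -0.49, adjusted p = 0.169). TNFRSF19 (TROY) had 15 to 19 reads in CsiRNA and 13 to 22 reads in NEAT1siRNA libraries (adjusted p = 0.708). TNFRSF10A has been described with the death-domain receptors, and it met the minimum of reads only through the CsiRNA group, where its mean was higher.

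The promoters of TNFRSF1B and TNFSF15, the superfamily genes under 1 TPM that were higher after NEAT1 silencing, are shown because both genes moved in the same direction from a low level. They are RefSeq windows on GRCh38.p14 from 250 bases before to 50 bases after the transcript start, at chr1:12166741-12167040 (plus strand) and chr9:114792481-114792780 (minus strand), written 5′ to 3′. The TNFRSF1B window is at the start of the gene in the GENCODE annotation, whereas the RefSeq start used for TNFSF15 lies 13509 bases inside the gene as GENCODE draws it (chr9:114784652-114806039), and no window was read at that outer start. Both strands were searched for the NF-κB consensus motif and for the AP-1 motif TGANTCA, which are the recognition motifs of the factors most often activated downstream of TNF receptors. Capitals mark a match.
TNFRSF1B: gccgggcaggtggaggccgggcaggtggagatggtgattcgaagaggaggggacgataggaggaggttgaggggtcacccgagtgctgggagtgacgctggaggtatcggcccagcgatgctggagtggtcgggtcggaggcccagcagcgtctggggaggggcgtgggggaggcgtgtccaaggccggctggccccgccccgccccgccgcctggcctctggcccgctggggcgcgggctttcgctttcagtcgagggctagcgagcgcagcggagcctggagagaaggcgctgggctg
TNFSF15: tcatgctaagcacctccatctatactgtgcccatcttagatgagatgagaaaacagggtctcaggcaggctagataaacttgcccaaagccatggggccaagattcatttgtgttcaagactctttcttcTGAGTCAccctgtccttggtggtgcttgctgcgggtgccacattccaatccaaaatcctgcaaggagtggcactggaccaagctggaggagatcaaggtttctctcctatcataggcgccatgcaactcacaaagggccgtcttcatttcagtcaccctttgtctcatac
The TNFRSF1B window held neither motif in these letters, and the TNFSF15 window held 1 AP-1 match and no NF-κB match. Of all 35116 promoters in the same RefSeq set, 7.71% held the AP-1 motif and 11.3% the NF-κB consensus motif. Windows were matched by symbol for 28 of the 42 superfamily genes. Of the other 14, TNFRSF10A, TNFRSF10B, TNFRSF10C, TNFRSF10D and TNFRSF11B were left out beforehand by their location, so their promoters were not examined. No window was matched for CD40, CD70, EDAR, TNFRSF4, TNFRSF12A, TNFRSF13C, TNFRSF17, TNFSF8 and TNFSF12. The 28 had 37 windows of which some overlap, and 7 of these held an AP-1 match and 12 an NF-κB match. The LTB windows cover almost the same bases, as do those of TNFSF14, and each of them held an NF-κB match. The counts are thus not of separate promoters, and their share was not tested against all promoters.

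The remaining 17 genes above 0 had at most 52 reads in all 6 libraries together. For ligands, these were TNF with 1 read in each of 2 libraries, LTA, TNFSF8 (CD30 ligand), TNFSF10 (TRAIL), TNFSF11 (RANK ligand), TNFSF13 (APRIL), TNFSF13B (BAFF) and TNFSF18 (GITR ligand). For receptors, they were TNFRSF25, EDAR, CD40, TNFRSF4 (OX40), TNFRSF8 (CD30), TNFRSF9 (4-1BB), TNFRSF13C (BAFF receptor), TNFRSF14 (HVEM) and TNFRSF18 (GITR). TNFRSF14, which encodes the receptor of LIGHT, had the most of these, with 8, 4 and 5 reads in CsiRNA and 13, 15 and 7 reads in NEAT1siRNA libraries, of which the lowest was below the highest CsiRNA library. CD40, a receptor of antigen-presenting cells, had 1 to 7 reads per library. The 8 genes at 0 were the ligands LTB, FASLG and TNFSF14, the decoys TNFRSF10C and TNFRSF6B, and the lymphocyte receptors CD27, TNFRSF13B (TACI) and TNFRSF17 (BCMA). A count of 0 allows up to 3 reads in a library, so that these transcripts were not detectable at this depth. TNFRSF10C, TNFRSF6B, CD27 and TNFRSF13B overlap other genes on the same strand, as CD27 does with TAPBPL (4.79 to 5.34 TPM), and how reads shared by overlapping genes were counted is not given in the sources used here. TNF, whose receptor TNFRSF1A was the most abundant of the family, was thus barely detectable in either group.

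Genes that act around and below these receptors were read from the same fit. Of the 49 genes listed for TNF receptor signaling, 40 had a mean of at least 1 TPM, and 3 of them fell and 0 rose, against 8.98% and 4.99% of all genes tested. At an unadjusted p of 0.05, 9 were lower and 0 higher, against 18.2% and 9.22% of all genes tested, and with voom 1 was called higher. The log2 fold change was below 0 in 29 of the 40, against 60.7% of all genes tested, with a median of -0.08 compared with -0.04 for all genes. TRAF1, an adaptor that joins TRAF2 at TNFR2 and related receptors, was at 4.60, 4.15 and 4.12 TPM in CsiRNA and at 2.51, 2.40 and 2.39 TPM in NEAT1siRNA libraries. The groups were far apart relative to their spread, and TRAF1 fell to 56.7% of control (log2 fold change -0.62 ± 0.09 (SE), limma adjusted p = 6.08e-05), a call kept in all of its 15 alternative settings. TRAF2, the adaptor that brings cIAP1 and cIAP2 to TNFR1 and TNFR2, was at 6.66, 5.96 and 6.35 TPM in CsiRNA and at 5.44, 4.92 and 4.77 TPM in NEAT1siRNA libraries. TRAF2 fell to 79.7% of control (log2 fold change -0.28 ± 0.09 (SE), adjusted p = 0.0487), close to the threshold, and its call was lost on leaving out each library except NEAT1siRNA replicate 1 (adjusted p of 0.0591 to 0.182). RELT, a TRAF1-binding receptor of the same superfamily that has no TNFRSF symbol, was at 2.05, 1.68 and 1.68 TPM in CsiRNA and at 1.53, 1.05 and 1.23 TPM in NEAT1siRNA libraries. RELT fell to 70.5% of control (log2 fold change -0.31 ± 0.10 (SE), adjusted p = 0.0487), and its call was lost without CsiRNA replicate 1 or 3 and without NEAT1siRNA replicate 2 or 3 (adjusted p of 0.0552 to 0.224).

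**Figure D5:**
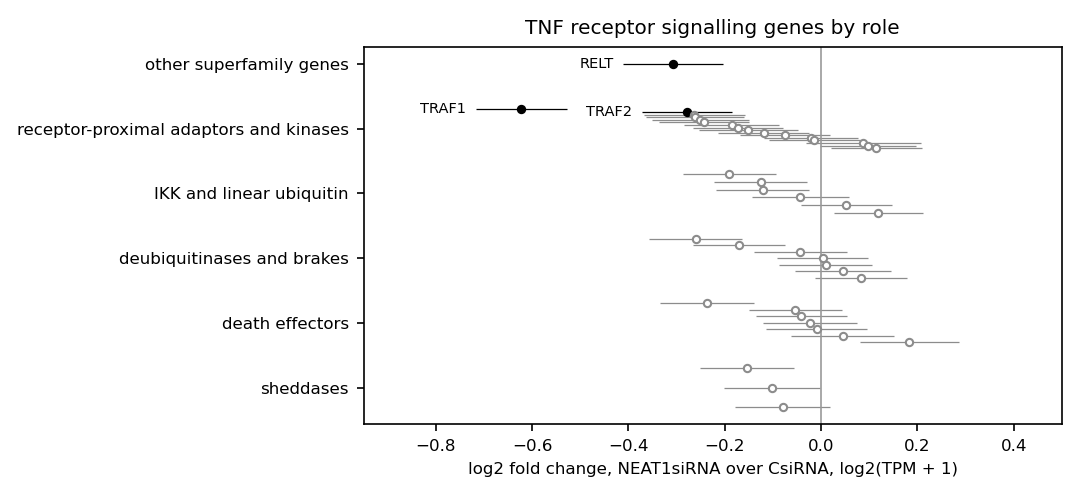
Log2 fold change with SE (NEAT1siRNA over CsiRNA, on the log2(TPM + 1) scale) of the 40 tested genes of TNF receptor signaling, in rows by role. Filled black circles are the 3 genes with an adjusted p under 0.05, RELT, TRAF1 and TRAF2, all to the left of 0.

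By role, 2 of 16 receptor-proximal adaptors and kinases passed, which include TRADD, FADD, RIPK1 and the TRAFs that carry the signal from the receptor tails. None of the 6 genes for the IKK complex and linear ubiquitin assembly, the 7 deubiquitinases and other brakes on NF-κB, the 7 death effectors such as the caspases, BID, CFLAR and XIAP, or the 3 sheddase genes (ADAM10, ADAM17 and RHBDF2) passed in the limma test. With voom, 8 of the 43 signaling genes tested passed, 7 lower and 1 higher, against 21.7% of all genes. With the GC and length trend removed, 11 of 40 passed, 8 lower and 3 higher, against 33.9% of all genes. The number of signaling genes called thus varied with the processing, as that of all genes did, whereas TRAF1, TNFRSF10B and TNFRSF12A were called in each setting in which they were tested.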

How the data were processed

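BT-549 RNA was isolated 48 h after transfection with CsiRNA or NEAT1siRNA (3 libraries each) and libraries were made with a stranded mRNA kit. Per the submitters' processing notes, reads were aligned to GRCh38 with STAR and compared with DESeq2; the counter and its use of strand are not given in the sources used here. The authors deposited TPM values per gene and library, which were used as deposited. From their comparison table only the deposited signal column, the size-factor-scaled count averaged over all 6 libraries, was used, and its fold changes and p-values were not. Groups were assigned from the sample titles.

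TPM values were analyzed as log2(TPM + 1) for the 10721 genes with a mean of at least 1 TPM, with lmFit and eBayes (with trend) in limma 3.58.1 (R 4.3.3) and Benjamini-Hochberg adjustment over all of these genes, at a threshold of 0.05. Log2 fold changes on this scale understate changes of low genes. With 3 against 3 libraries an exact permutation test cannot go below p = 0.1 and was not used.

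Whole reads were recovered from the TPM steps of low genes and the mean scaled counts. Within 0.05 of a whole number were 99.8% of values where that mean count was under 5, 98.5% from 5 to 50 and 76.9% from 50 to 500. From 500 up the share was 19.4%, so larger read numbers, such as those of TNFRSF10B, TNFRSF12A, TNFRSF1A and TNFRSF21, are approximate. Voom was run on these reads for genes with at least 10 reads in at least 3 libraries. The floor of 3 reads at a count of 0 covers counting error only. Positions and exon overlaps are from the GENCODE annotation of GRCh38, and promoters of superfamily genes outside chromosome 8 were matched by symbol to RefSeq. Values were read with pandas 2.3.3 in Python 3.11.15. The fits were tested on simulated reads drawn without a GC or length trend between libraries. This check thus does not cover such a trend.

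The superfamily genes, the signaling list, the markers and the tests were chosen with earlier results of these data known, and 1 further marker is not reported here. All superfamily genes are accounted for, those past the threshold with each library's value; signaling genes are named with values where they passed. RHOBTB2, CLDN6, TAPBPL, the readthrough of TNFSF12 and TNFSF13, and the 4 noncoding RNAs were named outside this rule, after their values were seen. Alternatives were other pseudocounts, filters, normalizations and models, removal of the GC and length trend, a replicate block and leaving out each library.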

Additional observations from a re-analysis of the deposited data

How the results depend on the processing

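The main test called 5 superfamily genes and 3 signaling genes. Superfamily genes called numbered 3 at a mean of at least 5 TPM, where 8 were tested, 8 with voom on recovered reads, where 17 were tested, 8 with the GC and length trend removed, 6 with that trend removed together with a replicate block, and 3 to 5 on leaving out 1 library each. Over all genes, the share called was 14% in the main test, 14.3% at a mean of at least 5 TPM, 2.73% without a filter, 21.7% with voom, 33.9% with the trend removed, 33% with that and the block, and 7.34% to 19.4% on leaving out 1 library each. All 5 were among the 8 called with voom and among the 8 called with the trend removed, and without a filter on TPM 4 were called, of which 2 were shared with the main test. Signaling genes called numbered 1 without a filter on TPM, 1 at a mean of at least 5 TPM, 8 with voom, 11 with the GC and length trend removed, 10 with that trend removed together with a replicate block, and 1 to 5 on leaving out 1 library each. The causes were not tested, except that fewer or more genes enter at other filters.

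The calls for TNFSF12, TNFRSF10D and TNFRSF11B were lost without a filter on TPM (adjusted p of 0.139, 0.0657 and 0.0991) as well as without the libraries named beside them. Without this filter the adjusted p was 0.123 for TRAF2 and 0.174 for RELT, and RELT also missed the threshold with a pseudocount of 0.1 (0.0530), quantile normalization (0.0526) and median centring (0.108). FAS, not called in any setting, had log2 fold changes of -0.02 to 0.14 on leaving out 1 library each, being below 0 without CsiRNA replicate 3 (-0.0246) and without NEAT1siRNA replicate 2 (-0.0202). With a replicate block, the same 5 superfamily genes and 3 signaling genes were called. Same-numbered samples deviated together in 1 of 3 pairs (correlations of -0.03, 0.25 and -0.11), so the numbers were not taken as pairs. Differently numbered samples had correlations from -0.40 (CsiRNA replicate 2 with NEAT1siRNA replicate 1) to 0.40 (CsiRNA replicate 3 with NEAT1siRNA replicate 1).

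Correlations of a library's deviations with GC content differed between libraries of a group, from -0.35 to 0.48 in CsiRNA and from -0.73 to 0.68 in NEAT1siRNA. Genes under 1 TPM rest on the few reads given beside them.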
